A study of Rattus norvegicus with 20 samples.

Results

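Serine palmitoyltransferase and the ceramide synthases are the enzymes that begin and shape sphingolipid synthesis, and 9 of their genes were followed in the hippocampus of newborn rats. The genes were Sptssb, Sptssa, Sptlc1, Sptlc2, Cers1, Cers2, Cers4, Cers5 and Cers6, taken by symbol from a table of 32883 genes. They were chosen by enzyme family at a time when fitted differences between the groups below were already known. Their calls are therefore a description and not independent support for any of the differences. All 9 were found, and 8 passed the filter on low counts, all but Cers1.

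The study measured polyA RNA in 1 hippocampal lobe from each of 20 Gunn rat pups killed on postnatal day 6. The Gunn mutation, present in every tissue from conception, removes bilirubin conjugation by the liver in pups with 2 copies. Homozygous pups (jj) are jaundiced, and the controls (Nj, also written Jj) are heterozygous carriers that are not jaundiced. The design crossed genotype with LED phototherapy (PT), the light treatment of neonatal jaundice, to ask what jaundice and light each do in the hippocampus. The 4 groups of 5 pups were Nj with no PT, jj with no PT, Nj with PT and jj with PT. Treated pups had intermittent light from day 4 through day 6, 12 h in total in daytime blocks of 3 h on and 3 h off. Total counts ran from 16.9 to 27.1 M (M for mega) per library, and 15272 genes were tested.

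The libraries differed in ways that touch the results. Their title prefixes, whose meaning the labels do not give, follow the groups: J13, J14 and J15 in untreated Nj, J17 in untreated jj and J18 in every treated pup. Only treated jj against treated Nj lies within 1 prefix. In each comparison of light with no light, prefix and light cannot be told apart. Nor can prefix and genotype in untreated jj against untreated Nj, which share no prefix. A summary that includes either kind of comparison carries the same limit. Ttr, a transcript of the choroid plexus that borders the hippocampus, ran from 3.57 to 9660 CPM (counts scaled to the size of the library, per M counts). It passed 1000 CPM in 7 libraries, called Ttr-rich here: 1 Nj and 1 jj without light, and 2 Nj and 3 jj with light. The 9 hippocampal genes listed as a check of the tissue summed to 526 to 645 CPM per library, with Prox1, the dentate gyrus factor, at 89.4 to 135 CPM. Of these 9, Fibcd1, a gene of the CA1 field, was low at 0 to 2.47 CPM.

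Sphingolipids are membrane lipids that are abundant in brain, above all in myelin. Their synthesis begins when serine palmitoyltransferase joins serine to a fatty acyl-CoA, usually palmitoyl-CoA, to make a long-chain base. Sptlc1 and Sptlc2 encode the large subunits. A small subunit, from Sptssa or Sptssb, raises the activity of the enzyme and sets which acyl-CoA it takes, and Sptssb favours a longer one than palmitoyl-CoA. The Ormdl proteins bind the enzyme and restrain it. Kdsr reduces the product, ceramide synthases then add a fatty acid to the base, and Degs1 inserts the double bond that makes ceramide. The ceramide synthases differ in the fatty acid they add. Cers1 is the neuronal form, Cers2 adds very long chains and is strong in myelin-forming cells, Cers4 adds long chains, and Cers5 and Cers6 add palmitate.

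Sptssb and Sptssa encode the alternative small subunits, so the 250 bases before their annotated starts are shown for comparison. They are taken from RefSeq on the rat build GRCr8, where all 9 symbols matched. Sptssb lies at chr2:156460910-156461159 and Sptssa at chr6:77891345-77891594, both on the minus strand. Capitals mark the motifs CCAAT and GGGCGG, read on either strand.
Sptssb: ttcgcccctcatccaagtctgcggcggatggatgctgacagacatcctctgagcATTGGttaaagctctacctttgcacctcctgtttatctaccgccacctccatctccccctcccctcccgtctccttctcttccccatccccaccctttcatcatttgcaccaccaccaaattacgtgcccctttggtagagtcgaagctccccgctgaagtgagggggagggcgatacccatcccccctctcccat
Sptssa: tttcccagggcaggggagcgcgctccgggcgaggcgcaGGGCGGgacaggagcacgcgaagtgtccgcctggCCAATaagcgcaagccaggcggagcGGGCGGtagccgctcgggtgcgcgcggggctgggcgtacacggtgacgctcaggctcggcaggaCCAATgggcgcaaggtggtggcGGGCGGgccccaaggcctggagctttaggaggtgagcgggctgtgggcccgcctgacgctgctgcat
The Sptssb window held 1 CCAAT match, no GGGCGG match and 9 CG dinucleotides, at 57.2% GC. The Sptssa window held 2 CCAAT and 3 GGGCGG matches and 28 CG dinucleotides, at 72.8% GC. Over 33465 windows of the same length the median was 51.2% GC and 5 CG dinucleotides, so that Sptssa was richer in GC than 94.7% of them and Sptssb richer than 67.9%. CCAAT was found in 34% of all windows and GGGCGG in 30.5%. TATAAA, present in 12.9% of windows, was in none of the 9 members' windows, and CACGTG, present in 5.59%, was in Cers6 alone among them. A match of letters is a description and does not show that a factor binds there.

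Sptssb (ENSRNOG00000009388) was the tested member whose level differed most between libraries, and it was higher in both groups of light-treated pups. In untreated Nj pups it stood at 7.84, 7.05, 6.27, 4.72 and 7.00 CPM, a mean of 6.58 ± 1.17 (SD, n = 5). In treated Nj pups it stood at 8.43, 9.60, 9.82, 10.30 and 10.40 CPM, a mean of 9.70 ± 0.783 (SD, n = 5). Every treated Nj pup was above every untreated Nj pup. The fitted fold was 1.47 (95% interval 1.25 to 1.73), a log2 difference of 0.56 with an SE of 0.11. Sptssb passed the threshold of an adjusted p under 0.05 (0.00963, edgeR quasi-likelihood test, Benjamini-Hochberg over all tested genes), at rank 100 among 611 genes called, or 4.00% of those tested.

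In untreated jj pups Sptssb stood at 5.56, 5.54, 4.84, 6.06 and 6.08 CPM, a mean of 5.62 ± 0.507 (SD, n = 5). In treated jj pups it stood at 7.95, 7.12, 9.65, 7.25 and 8.02 CPM, a mean of 8.00 ± 1.01 (SD, n = 5). Here too the lowest treated pup was above the highest untreated pup. The fitted fold was 1.42 (95% interval 1.20 to 1.68), a log2 difference of 0.51 with an SE of 0.12. It did not pass over all genes (edgeR, adjusted p = 0.0672, unadjusted p = 0.000239). In this comparison 25 genes, 0.164% of those tested, were called by edgeR, and DESeq2 called 271 genes, Sptssb among them (adjusted p = 0.00941).

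The light difference in jj minus that in Nj was -0.05 on the log2 scale (95% interval -0.39 to 0.29, edgeR adjusted p = 1), so the 2 genotypes were not shown to differ. That interval still allows the light difference to be larger or smaller in jj pups. For this interaction 0% of genes were called by edgeR, with 521 at an unadjusted p under 0.05 and 0 called by DESeq2. Averaged over both genotypes, a summary chosen after the data were seen, Sptssb was 1.45-fold higher in treated pups (95% interval 1.29 to 1.62, edgeR adjusted p = 0.000506). In that average 10.1% of genes were called.

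**Figure D1:**
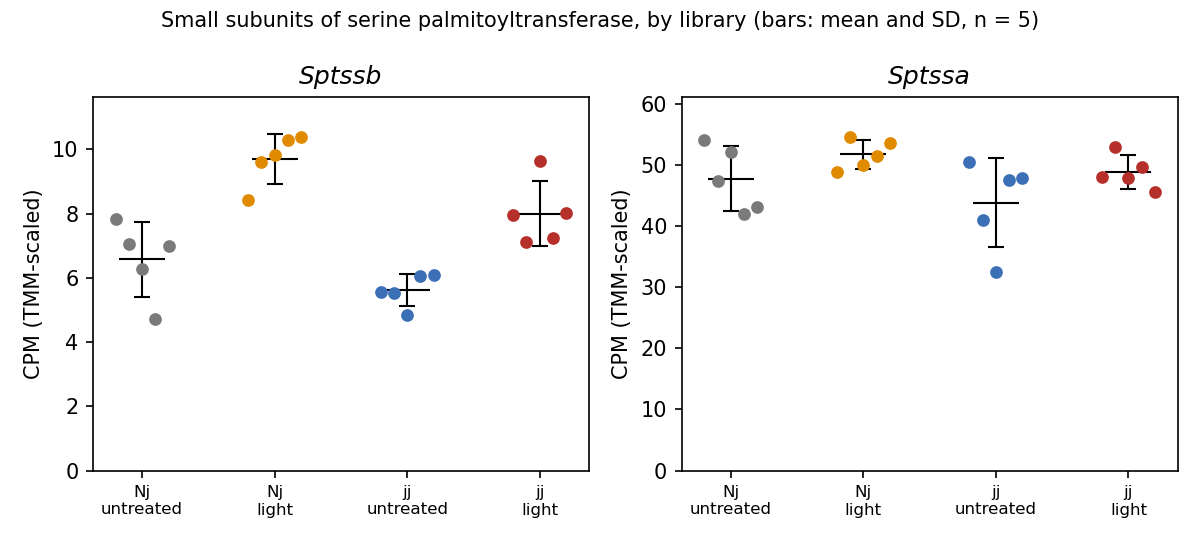
Levels of Sptssb (left) and Sptssa (right) in CPM on a linear axis from 0, 1 point per library, with bars for the mean and SD of 5 pups in each of the 4 groups. Sptssb runs from 8.43 to 10.40 CPM in treated Nj against 4.72 to 7.84 in untreated Nj, and from 7.12 to 9.65 in treated jj against 4.84 to 6.08 in untreated jj, while Sptssa overlaps in both pairs.

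Markers of cell types were also compared between treated and untreated libraries. Their summed levels overlapped in every list given here but the hippocampal genes in Nj. For light in jj, edgeR called none of these markers, beside 0.164% of all genes. The summed level of 13 neuronal markers was 11200 to 11900 CPM without and 11500 to 12200 with light in Nj, and 9670 to 11700 without and 10900 to 11900 with light in jj. Of the 13, 11 had a positive light difference in Nj and 11 in jj, and 1 was called lower with light in Nj, where 4.00% of all genes were called. The 8 astrocyte markers summed to 2400 to 2980 CPM in untreated and 2770 to 3030 in treated Nj, and to 2460 to 2850 and 2770 to 3020 in jj, with 6 and 5 of 8 positive. In Nj, 2 of the 8 were called higher and 1 lower with light, beside the same 4.00% of all genes. The 12 markers of myelinating oligodendrocytes summed to 312 to 428 and 359 to 430 CPM in Nj and to 318 to 417 and 396 to 438 in jj, with 7 of 9 tested genes positive in each genotype. The 8 microglia markers summed to 97.7 to 110 and 106 to 127 CPM in Nj and to 104 to 127 and 113 to 132 in jj. All 8 were positive and 2 were called higher with light in Nj, and 5 of 8 were positive in jj. The 9 hippocampal genes summed to less with light in Nj, 569 to 595 against 606 to 637 CPM with no overlap, and to 526 to 620 against 548 to 645 in jj, with 6 and 7 of 9 negative and none called in either. Red blood cell genes summed to 622 to 904 and 494 to 724 CPM in Nj and to 413 to 1010 and 535 to 928 in jj, with 5 and 4 of 5 negative. Of 6 markers of oligodendrocyte precursors, 4 were negative in each genotype. Of 6 endothelial markers, 3 were negative in Nj and 4 in jj, and of 6 meningeal markers 4 and 5. The 5 ependymal markers were all negative in Nj and all positive in jj, and no marker of these other lists was called in either. In the average over both genotypes, edgeR called 6 of the 13 neuronal markers higher and 1 lower with light, beside 10.1% of all genes. Also called there were 3 astrocyte markers higher and 1 lower, and 2 microglia and 2 myelinating oligodendrocyte markers higher. The average called 2 hippocampal genes and 1 endothelial marker lower. None of these markers was at 0 in every library, and their part in the Sptssb result was not tested. In bulk tissue, fewer cells of a type and less RNA per cell cannot be told apart.

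The 8 choroid plexus markers summed to 17.4 to 4380 CPM in untreated Nj and 30.5 to 4180 in treated Nj. In jj the sums were 18.3 to 10100 and 74.4 to 8090 CPM. The 7 tested among them were all positive for light, with a median log2 difference of 0.32 in Nj and 1.05 in jj, and Otx2, a choroid plexus factor, was at a median of 0 CPM. In untreated jj the Ttr-rich library had the lowest Sptssb level of its group, at 4.84 CPM, and in the other 3 groups the Ttr-rich and other libraries overlapped. Without the 7 Ttr-rich libraries, the log2 light difference of Sptssb was 0.51 (SE 0.14) in Nj and 0.59 (SE 0.16) in jj. Neither passed in edgeR with 13 libraries (adjusted p = 0.0828 and 0.464), where 112 and 0 genes were called. The average over genotypes passed there, at 0.55 (SE 0.11, edgeR adjusted p = 0.0179).

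**Figure D2:**
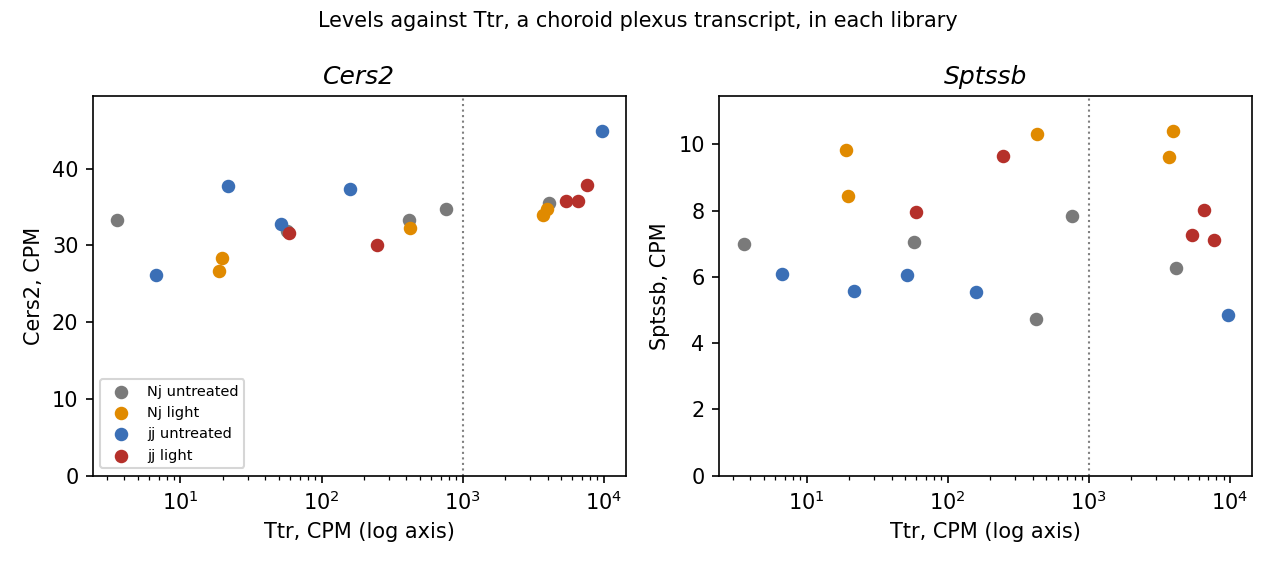
Cers2 (left) and Sptssb (right) in CPM on linear axes against Ttr in CPM on a log axis, 1 point per library coloured by group, with a dotted line at 1000 CPM of Ttr. In every group the libraries right of the line hold the highest Cers2 levels, and Sptssb shows no such order, its lowest value in untreated jj (4.84 CPM) being right of the line.

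In jj pups the mean Sptssb level was below that of Nj pups, by a margin that did not pass the test. The log2 difference was -0.23 (95% interval -0.47 to 0.01) without light and -0.28 (95% interval -0.51 to -0.05) with light, and the groups overlapped in both. The edgeR adjusted p was 0.775 and 0.724. In each of these comparisons 0% of genes were called by edgeR, with 972 and 1011 genes at an unadjusted p under 0.05, and DESeq2 called 1 and 2 genes, no member among them. The average over both treatments was -0.26 (SE 0.08, edgeR adjusted p = 0.408), with 0% of genes called and 1709 at an unadjusted p under 0.05. The difference without light was -0.10 when untreated Nj was limited to its 3 libraries of prefix J15. With light it was -0.12 without the Ttr-rich libraries. Ordered by mean, the groups ran Nj with light, jj with light, untreated Nj, then untreated jj, and each neighbouring pair overlapped.

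The 3 genes with the pattern most like that of Sptssb, by Pearson's r of log2 CPM over the 20 libraries among 13294 genes, were Krt222 (r = 0.94), Atp1b1 (r = 0.92) and Atp6v1c1 (r = 0.92). Krt222 is a keratin-like gene, Atp1b1 encodes the beta subunit of the sodium pump, and Atp6v1c1 a subunit of the vacuolar proton pump. Libraries share depth and group, and r after removing group means was 0.80, 0.78 and 0.79. Their log2 light differences were 0.43, 0.21 and 0.22 in Nj and 0.43, 0.20 and 0.15 in jj. These are given with no test, since the genes were picked over libraries that include the light groups, which builds in a difference in the direction of Sptssb.

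Sptssa (ENSRNOG00000004292), the other small subunit, did not pass the test in any comparison. It stood at 54.1, 47.3, 52.0, 42.0 and 43.1 CPM in untreated Nj and at 48.8, 54.6, 50.0, 51.4 and 53.5 in treated Nj. In jj pups it stood at 50.4, 40.9, 32.5, 47.5 and 47.8 CPM without light and at 48.0, 52.9, 47.9, 49.6 and 45.6 with light. The groups overlapped throughout, and the lowest value was that of the Ttr-rich untreated jj library. The log2 light difference was 0.11 in Nj (95% interval -0.07 to 0.30, edgeR adjusted p = 0.554) and 0.15 in jj (95% interval -0.03 to 0.34, edgeR adjusted p = 0.491). These intervals allow a rise of up to 23.1% in Nj and 26.7% in jj. Averaged over both genotypes, Sptssa was 9.69% higher with light (95% interval 0.0704 to 20.2%). This did not pass (edgeR unadjusted p = 0.0484, adjusted p = 0.199). Against Nj, jj pups differed by -0.12 without and -0.08 with light. Without the Ttr-rich libraries the light difference in jj was 0.03 (SE 0.09) and the jj difference without light was 0.00 (SE 0.07).

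Reads of Sptssb per 100 reads of Sptssa summarise the pair within each library, as a ratio of reads that is not corrected for transcript length. The ratio was 13.8 ± 2.07 (SD, n = 5, range 11.2 to 16.2) in untreated Nj and 18.8 ± 1.27 (range 17.3 to 20) in treated Nj, with no overlap. In jj it was 13.0 ± 1.40 (range 11.0 to 14.9) without light and 16.5 ± 2.61 (range 13.4 to 20.1) with light, and these overlapped. The ratio was not tested, since it restates the Sptssb values that chose the gene.

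Sptlc1 (ENSRNOG00000010882) and Sptlc2 (ENSRNOG00000012210), the large subunits, were the steadiest members. Sptlc1 lay between 30.1 and 34.6 CPM in all 20 libraries, a ratio of highest to lowest of 1.15 and a coefficient of variation of 3.74%. Sptlc2 lay between 40.8 and 48.9 CPM, with a coefficient of variation of 4.78%, against 23.9% for Sptssb. The log2 light difference of Sptlc1 was 0.04 in Nj (95% interval -0.06 to 0.13) and 0.01 in jj (95% interval -0.09 to 0.11). That of Sptlc2 was 0.02 (95% interval -0.07 to 0.12) and 0.00 (95% interval -0.10 to 0.09). The bounds limit a rise to 9.47% for Sptlc1 in Nj and 8.61% for Sptlc2 in Nj. Between genotypes Sptlc2 was at 45.3 and 43.4 CPM without light, and at 46.0 and 43.3 with light, in Nj and jj. The log2 differences of -0.06 and -0.09 did not pass (edgeR adjusted p = 0.794 and 0.724).

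Cers2 (ENSRNOG00000021138), which makes ceramides with very long chains, varied most among the tested members that are ceramide synthases, from 26.1 to 44.9 CPM. Cers3, a tested ceramide synthase that is not a member, varied more relative to its level. Cers3 ran from 0.109 CPM in untreated jj to 1 CPM in treated Nj, on few counts. Cers2 stood at 34.8, 31.9, 35.5, 33.3 and 33.3 CPM in untreated Nj and at 28.3, 34, 26.7, 32.2 and 34.7 in treated Nj. In jj it stood at 37.7, 37.3, 44.9, 32.8 and 26.1 CPM without light and 31.6, 37.9, 30, 35.8 and 35.8 with light. The spread was widest in untreated jj, and the groups overlapped. The log2 light difference was -0.11 in Nj (95% interval -0.33 to 0.10, edgeR adjusted p = 0.63) and -0.06 in jj (95% interval -0.28 to 0.16, edgeR adjusted p = 0.844). Between jj and Nj it was 0.08 without and 0.13 with light, with adjusted p of 0.872 and 0.749 in edgeR.

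Ttr-rich libraries held more Cers2 than every other library of their group in 4 of 4 groups: 35.5 against 31.9 to 34.8 CPM in untreated Nj, and 44.9 against 26.1 to 37.7 in untreated jj. In treated Nj it was 34 to 34.7 against 26.7 to 32.2 CPM, and in treated jj 35.8 to 37.9 against 30 to 31.6. No other member was split this way in every group. The share of all tested genes split this way was not counted, and each untreated group held only 1 Ttr-rich library. Among the libraries below 1000 CPM of Ttr, Cers2 followed the order of Ttr in treated Nj and not in the other 3 groups. Without the Ttr-rich libraries the light difference of Cers2 was -0.19 in Nj (SE 0.10, edgeR adjusted p = 0.383) and -0.12 in jj (SE 0.12, edgeR adjusted p = 0.799). Degs1, the desaturase that completes ceramide, showed the same split in 4 of 4 groups, for example 93.0 against 64.8 to 69.2 CPM in untreated jj. It was the only gene outside the members that was examined in this way.

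Cers4, Cers5 and Cers6 did not pass in any comparison and overlapped in all of them. Cers4 (ENSRNOG00000001072) averaged 45.7 CPM in Nj without light, 46.8 in Nj with light, 43.9 in jj without and 46.5 in jj with light, with log2 light differences of 0.03 and 0.08. Cers5 (ENSRNOG00000052990) averaged 74.9, 74.3, 79.4 and 75.8 CPM in the same order, with light differences of -0.01 and -0.07. Cers6 (ENSRNOG00000024595) averaged 34.2, 33.0, 34.2 and 32.4 CPM, with light differences of -0.05 and -0.08. The widest of these 6 light intervals were those of Cers4, from -0.11 to 0.18 in Nj and from -0.06 to 0.23 in jj. Untreated jj library 3, the one richest in Ttr, held the highest value of all 20 for Cers2 (44.9 CPM), Cers4 (52.3) and Cers5 (87.1), and the lowest for Sptssa (32.5) and Sptlc2 (40.8).

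**Figure D3:**
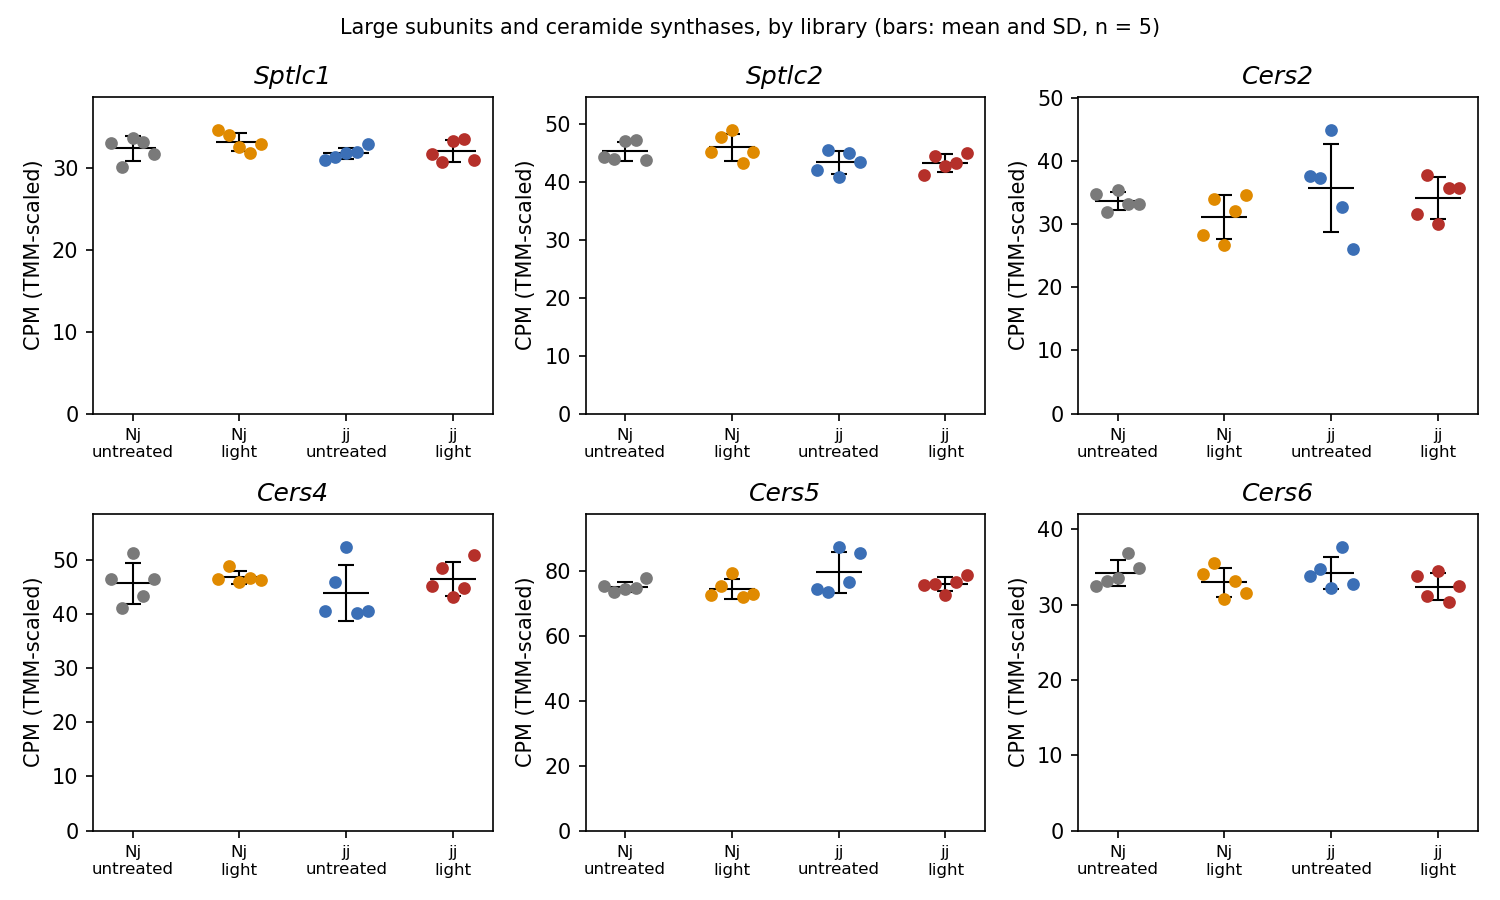
Levels of Sptlc1, Sptlc2, Cers2, Cers4, Cers5 and Cers6 in CPM on linear axes from 0, 1 point per library, with bars for the mean and SD of 5 pups in each of the 4 groups. All groups overlap in all 6 panels, and the widest spread is that of Cers2 in untreated jj, from 26.1 to 44.9 CPM.

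Cers1 (ENSRNOG00000062030), the neuronal ceramide synthase, had 1 to 15 counts per library, or 0.044 to 0.707 CPM, and was left out by the filter on low counts. In untreated Nj it stood at 0.224, 0.548, 0.707, 0.42 and 0.344 CPM, and in treated Nj at 0.364, 0.044, 0.354, 0.4 and 0.43. In jj it stood at 0.199, 0.295, 0.653, 0.474 and 0.369 CPM without light and at 0.47, 0.29, 0.255, 0.308 and 0.282 with light. The groups overlapped throughout. In RefSeq, Cers1 and the growth factor gene Gdf1 have the same 250-base window before their starts (chr16:19146481-19146730, minus strand). Gdf1 was listed at 0 counts in all 20 libraries. For reads that could be assigned to Gdf1 alone, this allows up to 3 counts per library, or 0.112 to 0.177 CPM. How reads that overlap both genes were counted is not stated in the labels or notes, so the levels of Cers1 and Gdf1 are uncertain.

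Across the 8 tested members, edgeR called 1 for light in Nj, beside 4.00% of all tested genes, and 0 for light in jj, beside 0.164%. It called 0 for jj against Nj without light, for jj against Nj with light and for the interaction, beside 0% of all genes in each. At an unadjusted p under 0.05 there were 1, 1, 0, 1 and 0 members in these 5 comparisons, each time Sptssb, beside 2770, 1978, 972, 1011 and 521 of the 15272 tested genes. DESeq2 differed only in calling Sptssb for light in jj. In the averages, added after the data were seen, edgeR called 1 member for light, Sptssb, and 0 for jj against Nj, beside 10.1% and 0% of genes. At an unadjusted p under 0.05 there were 2 members in each average, beside 3757 and 1709 genes. They were Sptssb and Sptssa for light, and Sptssb and Sptlc2 (edgeR unadjusted p = 0.0307, adjusted p = 0.426) for jj against Nj. Groups did not overlap for 1 of 8 members, Sptssb, with light in Nj and with light in jj, beside 6.46% and 2.96% of all tested genes. Between genotypes 0 of 8 members did not overlap, beside 1.00% of genes without and 1.20% with light. The median log2 difference of the 8 was 0.03, 0.00, -0.04 and -0.04 in the 4 group comparisons, and that of all genes was within 0.01 of 0 in each. The comparisons of light in Nj and of jj against Nj without light share the untreated Nj pups, and the other neighbouring pairs share a group in the same way.

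**Figure D4:**
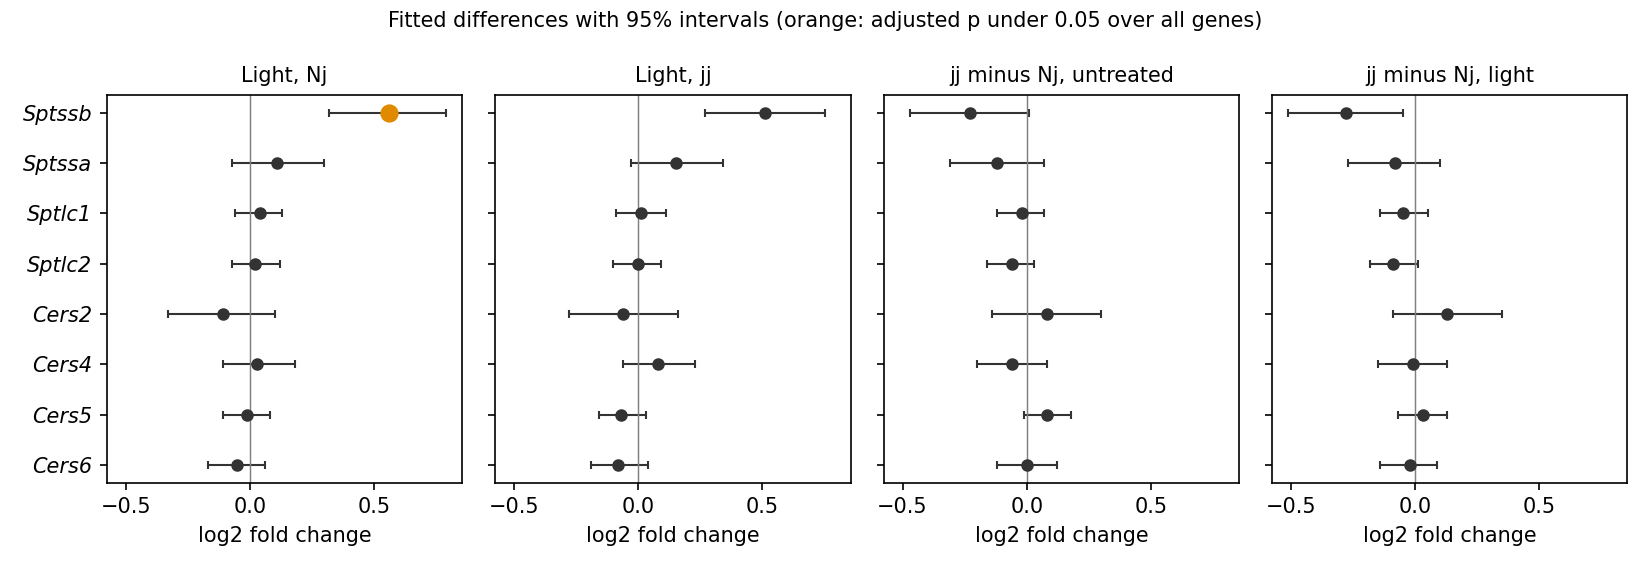
Fitted log2 differences of the 8 tested members with 95% intervals on a linear axis, in 4 panels for light in Nj, light in jj, jj minus Nj without light and jj minus Nj with light. Sptssb is the 1 member called (orange, light in Nj, 0.56), its interval for light in jj (0.27 to 0.75) is also above 0, and every other member's light interval includes 0.

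Among 80 other listed genes of sphingolipid metabolism and acyl-CoA supply, 73 were tested. For light in Nj, edgeR called 1 higher and 1 lower, beside 4.00% of all tested genes, and 44 of 73 were positive with a median log2 difference of 0.05. Acsl6, a brain acyl-CoA synthetase, rose from 122 ± 7.45 to 144 ± 5.89 CPM (SD, n = 5), a log2 difference of 0.24 (SE 0.05, edgeR adjusted p = 0.00767). Fasn, fatty acid synthase, which makes palmitate, fell from 1150 ± 88.1 to 913 ± 80.3 CPM (SD, n = 5), a log2 difference of -0.33 (SE 0.06, edgeR adjusted p = 0.00649). Neither overlapped between treated and untreated Nj pups, beside 6.46% of all tested genes with no overlap there. Samd8 and Col4a3bp, listed genes that were not called by edgeR in Nj, did not overlap either. For light in jj, edgeR called 0 of 73, beside 0.164% of all genes. DESeq2, run on 77 of the listed genes, called 3, and it also called more of all genes than edgeR here, as given above. At an unadjusted p under 0.05 there were 15 of the 73, beside 1978 of all 15272 genes. The lowest p among them was that of Smpd5, a sphingomyelinase gene, at 7.18 ± 0.958 CPM with light against 9.57 ± 0.658 without (SD, n = 5). Smpd5 did not overlap between these groups, beside 2.96% of all tested genes with no overlap. Ugt8 and Acsl6, not called by edgeR in jj, did not overlap either. The log2 difference of Smpd5, -0.41 (SE 0.09), did not pass (edgeR adjusted p = 0.0672). There Acsl6 stood at 123 and 140 CPM and Fasn at 1070 and 955 CPM without and with light.

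For jj against Nj, edgeR called 0 of 73 without light and 0 of 73 with light, beside 0% of all genes in each, and DESeq2 called 0 in both. At an unadjusted p under 0.05 in edgeR there were 3 of 73 in each, beside 972 and 1011 of all 15272 genes. For the interaction edgeR called 0 of 73, beside 0% of all genes, and DESeq2, run on 77, also 0. At an unadjusted p under 0.05 there were 0 in edgeR, beside 521 of all genes, and 1 in DESeq2. The listed gene with the lowest p between treated jj and treated Nj was Ormdl1, a brake on serine palmitoyltransferase, at 1.24 ± 0.337 against 0.716 ± 0.138 CPM (SD, n = 5). Its log2 difference was 0.79 (SE 0.25, unadjusted p = 0.00405, edgeR adjusted p = 0.724), from 10 to 45 counts per library in these groups. Without light the lowest p was that of Spns2, at 48.1 ± 4.67 CPM in jj against 43.1 ± 2.59 in Nj (SD, n = 5). The log2 difference of Spns2 was 0.16 (SE 0.06, edgeR unadjusted p = 0.0174, adjusted p = 0.775). For the interaction the lowest p was that of Fasn.

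The 9 other genes of the route to ceramide were not among the genes called in these comparisons. Ormdl3, the most counted of the Ormdl genes, averaged 66.5 and 65.7 CPM in Nj and 69.6 and 67.9 in jj, without and with light. Kdsr, the reductase after serine palmitoyltransferase, averaged 12.1 and 12.8 CPM in Nj and 11.8 and 12.1 in jj. Degs1 averaged 65.8 and 71.1 CPM in Nj and 71.4 and 76.6 in jj. Sptlc3, an alternative large subunit outside the 9, had 4 to 75 counts. Its log2 light difference of 1.76 in Nj (SE 0.62, edgeR adjusted p = 0.12) rested on treated Nj library 4, at 3.75 CPM. Without that library the difference was 0.40 (SE 0.41, edgeR adjusted p = 0.673). In jj pups Sptlc3 averaged 0.357 CPM without and 0.633 with light, with overlap. The log2 light difference there was 0.84 (SE 0.67, edgeR adjusted p = 0.627), on 4 to 17 counts per library.

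Averaged over both genotypes, 10 of the 73 listed genes were called by edgeR for light, 6 higher and 4 lower, where 10.1% of all genes were called. Of 14 genes that use ceramide, Ugt8, which makes the galactosylceramide of myelin, was higher (log2 0.31, adjusted p = 0.00472). Col4a3bp, which carries ceramide to the Golgi, was higher (0.17, adjusted p = 0.0309), and St8sia1, a ganglioside sialyltransferase, was lower (-0.16, adjusted p = 0.0264). Of 18 genes of ceramide release and breakdown, Asah1, the acid ceramidase, was higher (0.19, adjusted p = 0.0147), and the sphingomyelinase genes Smpd4 (-0.16, adjusted p = 0.0248) and Smpd5 (-0.32, adjusted p = 0.0039) were lower. S1pr1, a receptor for sphingosine phosphate, was higher (0.16, adjusted p = 0.0186) among 10 genes of that branch. Among 22 genes of acyl-CoA supply, Acsl6 (0.21, adjusted p = 0.000527) and Acsl3 (0.13, adjusted p = 0.0483) were higher and Fasn was lower (-0.25, adjusted p = 0.00111). Ugt8 is also on the list of oligodendrocyte markers. Without the Ttr-rich libraries 3 of the 10 passed, Ugt8, Acsl6 and Fasn. There Asah1 was at 0.07 (edgeR adjusted p = 0.414) and S1pr1 at 0.10 (edgeR adjusted p = 0.23). Over 7 alternative fits, that one included, Smpd5 ran from -0.33 to -0.3, and Smpd4 and St8sia1 each from -0.17 to -0.15. Acsl3 ran from 0.13 to 0.15 and Col4a3bp from 0.14 to 0.2. The fit without Ttr-rich libraries held 13 libraries, and its share of all genes called for this average is not given here. Whether the lost calls reflect Ttr or fewer libraries was not tested.

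**Figure D5:**
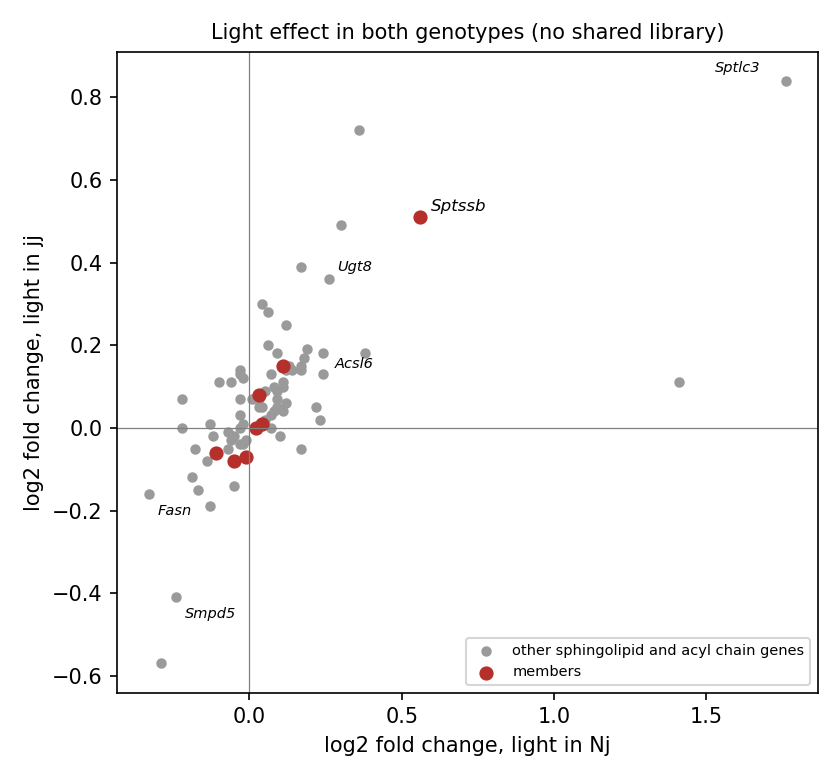
Log2 light differences in jj (vertical) against Nj (horizontal), both on linear axes, for the 8 tested members (red) and the 73 other listed genes (grey), from group pairs that share no library. Sptssb lies at 0.56 and 0.51 and the other 7 members within 0.15 of 0 on both axes, while Sptlc3, at 1.76 in Nj, rests on 1 library.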

How the data were processed

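The authors deposited raw read counts per rat Ensembl gene for 20 libraries, with no normalisation, and these counts were used as deposited. Per the submitters' processing notes, FastQC, TopHat2 2.0.13, Subread and edgeR were used. They name a mouse genome although the gene identifiers are rat. The rat build and the strand setting are not given in the sources used here. Coordinates come from RefSeq on GRCr8 alone.

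All 20 libraries (16.9 to 27.1 M counts) entered 1 edgeR 4.0.16 quasi-likelihood fit in R 4.3.3 with limma 3.58.1: filterByExpr by group, TMM scaling, robust, legacy estimates, 1 mean per group, two-sided tests, Benjamini-Hochberg over 15272 genes, threshold 0.05. The fit was tested on simulated data. CPM use TMM-scaled library sizes. Transcript lengths were not used, so levels are not compared between genes. Each library is 1 pup, and litters are not given. The p-values set group differences against the spread between pups within groups. They do not cover variation between the title prefixes that follow the groups. The series text speaks of 6 untreated pups and 5 per group were analysed.

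Members and gene lists were chosen with earlier results of these data known. Named were all members, every listed sphingolipid gene past the threshold (at most 6 per list), the lowest p where none passed, and the 3 genes most like Sptssb among genes whose log2 CPM averaged 1 or more. Sptlc3, Cers3 and the middle genes of the pathway were named after their values were seen. Alternatives were DESeq2 1.42.0 (Wald test) and its size factors, no filter, a mean count of at least 10, newer edgeR estimates, the compared groups alone, prefix J15 alone in untreated Nj, no library above 1000 CPM of Ttr, and each library left out in turn. The averages over genotypes or treatments were added after seeing the data.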

Additional observations from a re-analysis of the deposited data

Results flagged for a closer look

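In 5 of 44 sets of 5 pups for 1 gene, a single library stood far from the other 4 by Dixon's test, which chance does in about 5% of sets. Cers1 was at 0.044 CPM (1 count) in treated Nj library 2, where the other 4 lay at 0.354 to 0.43 CPM. It was at 0.47 CPM (12 counts) in treated jj library 1, where the other 4 lay at 0.255 to 0.308. Cers4 was at 48.9 CPM in treated Nj library 2, against 46.0 to 46.7 in the others. Sptlc3, the alternative large subunit, was at 0.825 CPM (14 counts) in untreated jj library 2, against 0.199 to 0.277, and at 3.75 CPM (75 counts) in treated Nj library 4, against 0.354 to 0.526. Sptssb had no such library in any group.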

How the results depend on the processing

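No paired analysis was possible because no replicate number in the labels links pups of different groups. Over 97 alternative fits of the 5 comparisons, 0 called a member other than Sptssb. Sptssb kept its direction and its call for light in Nj in 10 of 10 fits that left out 1 library (log2 0.46 to 0.63, adjusted p from 0.00775 to 0.033, 1 member called in each) and in 7 of 8 others. Without Ttr-rich libraries it was 0.51 (adjusted p = 0.0828), 0 members were called, and 112 genes in place of 611. On all libraries DESeq2 called 1009 genes for light in Nj.

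For light in jj, leaving out 1 library gave 0.44 to 0.55 with 0 of 10 past the threshold (adjusted p from 0.0666 to 0.196). DESeq2 gave 0.51 (adjusted p = 0.00941) and called 1 member, with 271 genes in place of 25. The jj minus Nj difference ran from -0.33 to -0.16 without light and from -0.35 to -0.24 with light when 1 library was left out. The interaction, -0.05, turned to 0.08 without Ttr-rich libraries, was -0.18 with untreated Nj limited to prefix J15, and ran from -0.12 to 0.05 over left-out libraries, positive only without untreated Nj library 4. The average light difference of Sptssb passed in 20 of 20 and 7 of 7 fits (0.49 to 0.60). Acsl6 and Fasn kept their calls for light in Nj in 10 of 10 and 8 of 8 fits. In the average over genotypes Acsl3 kept its call in 10 of 20 left-out fits, Col4a3bp in 14, and Smpd4 and St8sia1 in 15. The cause of these changes was not tested. Sptssb rests on 89 to 222 counts per library, Cers1 on 1 to 15.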

Other observations

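The library with the high Sptlc3 level, treated Nj library 4, was searched after its value was seen for other genes with at least 30 counts and over 3 times the CPM of the highest other library. There were 4: Sptlc3 at 3.75 CPM (0.825 in the next library), Fezf1, a forebrain transcription factor, at 1.95 (0.242), Tfap2d, an AP-2 family factor, at 2.15 (0.612), and LOC103692166 at 6.30 (1.61). The libraries of the series had between 0 and 7 such genes each.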
